A study of Mus musculus with 4 samples.

Results

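Olfactory and vomeronasal receptor genes were examined as loci expected to be silent in blood-forming cells. They were taken by symbol (Olfr, Vmn1r and Vmn2r) from the protein-coding genes on chromosomes 1 to 19 of the RefSeq table of GRCm38.p6, whose coordinates are those of mm10. The rule gave 1458 of 20661 protein-coding genes. Of these, 123 were type 2 vomeronasal receptor genes (Vmn2r), 231 were type 1 vomeronasal receptor genes (Vmn1r) and 1104 were olfactory receptor genes (Olfr). A further 7 genes with such symbols lay elsewhere and were not counted. For 4 of the 1458 genes, Olfr100, Vmn1r186, Vmn1r187 and Vmn2r122, the table lists positions within the first 172761 bp of a chromosome, where no library had a peak, so these positions do not seem to be on the assembled chromosome. They are counted here as loci without a peak, and the main values without them are given with the alternatives. Each locus was the gene body with 1 kb on either side, and the merged loci covered 8.61 Mb.

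The peaks came from CUT&Tag, in which an antibody, here against the AAA+ ATPase Ruvbl2, directs a transposase to chromatin in sorted mouse bone marrow cells. The LSC libraries were from leukaemia stem cells (CD34+, CD16/32+, c-Kit+, negative for Sca-1 and lineage markers) of Nup214fl/+ mice with MLL-AF9-driven disease. The HSC libraries were from haematopoietic stem cells (LSK, CD48-, CD150+) of Nup214fl/+ mice for which no fusion is named. Every library thus carried 1 floxed allele of Nup214. The labels name no Cre, do not say how the fusion was introduced, and give no age, sex or strain. Groups were taken from the sample titles and the stated design, because the cell type label reads hematopoietic stem cell for the LSC libraries as well. The LSC gate also describes normal granulocyte-monocyte progenitors. Each group had 2 libraries made from 2000 to 5000 cells. The labels do not say whether these came from separate animals, so the spread between them may be technical. No control library without the antibody is named. The antibody's catalogue number and the anti-rabbit secondary antibody are given without the host of the first antibody.

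The autosomal peak lists held 206291 and 200608 peaks in LSC replicates 1 and 2, and 153914 and 272787 in HSC replicates 1 and 2. The lists hold no read totals, and depth is unknown. A peak in every library was found at 6 of 9 fixed HSC marker genes and 6 of 10 fixed granulocyte-monocyte progenitor or LSC marker genes, against 63.3% of all protein-coding genes. Of other fixed markers, 2 of 3 B cell, 1 of 3 erythroid and 0 of 3 T and NK cell genes had a peak in every library. So did 3 of 8 marker genes of olfactory or vomeronasal neurons. Presence of peaks thus did not check the cell labels.

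Olfactory receptors are G protein-coupled receptors of the main olfactory epithelium, where a mature neuron expresses a single allele of a single receptor gene. Vomeronasal receptors detect pheromones and other chemical signals between animals, the type 1 receptors in apical and the type 2 receptors, which have a long extracellular domain, in basal neurons of the vomeronasal organ. The genes stand in large clusters of related copies. The coding part of an olfactory or type 1 receptor gene usually lies in a single exon, whereas type 2 receptor genes are split over several exons. The median annotated length was 24544 bp for Vmn2r, 924 bp for Vmn1r and 950 bp for Olfr genes. Of the receptor gene models, 76.3% had a length that was a multiple of 3, against 33.7% of other genes, so the annotated start of many is the start of the coding sequence and not of the transcript.

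A RefSeq window around the annotated start, 250 bp before it to 50 bp after it, was at hand for 1260 of the 1458 receptor genes. The 4 windows below show how the start of a receptor gene looks, and where peaks lay in it. They are printed 5′ to 3′ on the strand of the gene, with bases covered by peaks of at least 2 libraries in capitals. Vmn2r29 (chr7:7278240-7278539, GRCm38.p6, minus strand) had peaks in LSC replicate 2 and HSC replicate 2. Olfr665 (chr7:104880459-104880758, plus strand) was the single window with peaks in 3 libraries, LSC replicate 1 and both HSC replicates. Olfr547 (chr7:102534499-102534798, plus strand) was covered over its whole length in LSC replicate 2 and HSC replicate 2. Olfr419 (chr1:174250927-174251226, minus strand) had no peak and a GC content at the receptor median.
Vmn2r29: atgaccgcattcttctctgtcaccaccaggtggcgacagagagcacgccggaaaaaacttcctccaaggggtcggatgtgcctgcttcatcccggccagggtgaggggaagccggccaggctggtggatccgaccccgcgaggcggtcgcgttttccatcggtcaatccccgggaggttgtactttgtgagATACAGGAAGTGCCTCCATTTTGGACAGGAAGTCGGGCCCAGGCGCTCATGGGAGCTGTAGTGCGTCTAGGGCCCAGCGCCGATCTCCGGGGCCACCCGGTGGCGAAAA
Olfr665: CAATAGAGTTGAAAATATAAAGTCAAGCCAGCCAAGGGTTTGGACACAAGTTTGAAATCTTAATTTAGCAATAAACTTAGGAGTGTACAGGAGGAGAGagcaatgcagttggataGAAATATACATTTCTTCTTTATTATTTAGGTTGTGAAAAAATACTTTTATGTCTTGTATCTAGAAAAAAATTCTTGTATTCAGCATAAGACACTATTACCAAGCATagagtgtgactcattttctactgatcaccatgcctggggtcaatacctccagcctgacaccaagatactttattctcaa
Olfr547: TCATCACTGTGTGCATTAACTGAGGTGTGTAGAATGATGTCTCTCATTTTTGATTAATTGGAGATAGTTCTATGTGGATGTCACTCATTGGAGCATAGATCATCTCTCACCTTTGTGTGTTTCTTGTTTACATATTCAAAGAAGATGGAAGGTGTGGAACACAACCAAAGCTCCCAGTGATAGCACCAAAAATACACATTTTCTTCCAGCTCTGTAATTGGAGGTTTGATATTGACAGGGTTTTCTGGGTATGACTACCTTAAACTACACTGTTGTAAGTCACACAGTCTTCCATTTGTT
Olfr419: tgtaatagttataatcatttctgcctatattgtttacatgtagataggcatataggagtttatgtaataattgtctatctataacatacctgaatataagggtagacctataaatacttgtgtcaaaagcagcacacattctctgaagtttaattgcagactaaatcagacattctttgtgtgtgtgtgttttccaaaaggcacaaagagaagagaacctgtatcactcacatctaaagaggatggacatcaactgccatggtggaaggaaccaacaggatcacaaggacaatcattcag

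The Vmn2r29 window stood apart from the others in base composition. Its GC content was 62.3% with 23 CpG sites, against 34.7% and 0 CpG sites for Olfr665, 38.3% and 0 for Olfr547, and 35.7% and 0 for Olfr419. The median over the 1260 receptor windows was 35.7% GC and 1 CpG, against 58.0% GC and 16 CpG over 15196 windows of other protein-coding genes. Receptor windows, many of them at a coding start, were thus poor in GC and nearly free of CpG. The Vmn2r29 window was closer to those of other genes.

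Peaks were fewer at receptor loci than the placement of the same library's peaks along the chromosomes would give on average. The yardstick was the number of peaks overlapping the loci averaged over every circular shift of that library's peaks along each chromosome. The ratio of the observed to this average is called the relative rate, and a value of 1 means as many peaks as the average shift. There were 602 and 555 peaks at receptor loci in LSC replicates 1 and 2, and 503 and 718 in HSC replicates 1 and 2. Per Mb of receptor loci this was 69.9 and 64.5 peaks in LSC libraries and 58.4 and 83.4 in HSC libraries. The shift averages were 92.1 and 93.7 per Mb for LSC libraries and 69.6 and 125 per Mb for HSC libraries. All 4 libraries lay below their average, with relative rates of 0.759 and 0.688 in LSC and 0.840 and 0.666 in HSC libraries. The mean over the 4 libraries was 0.738 ± 0.079 (SD, n = 4).

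The receptor loci were therefore not free of peaks. At least 1 peak lay at 427 (29.3%) and 428 (29.4%) of the 1458 loci in LSC replicates 1 and 2, and at 369 (25.3%) and 501 (34.4%) in HSC replicates 1 and 2. Over all 20661 protein-coding genes the shares with a peak were 81.1% and 84% in LSC and 74.9% and 86.8% in HSC libraries. Long genes offer more room for a peak, and 1144 receptor genes were at most 1500 bp long. Of the 940 Olfr genes of at most 1500 bp, 23.3% and 23.0% had a peak in LSC libraries and 18.6% and 27.9% in HSC libraries. Among the 785 other protein-coding genes of at most 1500 bp, the shares were 35% and 43.8% in LSC and 28.9% and 48.9% in HSC libraries. The short Olfr genes had the lower share in each library, and the shares were not tested.

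LSC and HSC libraries did not differ in the relative rate at receptor loci beyond the spread within each group. The mean log2 difference, LSC minus HSC, was -0.05, with p = 1 in an exact two-sided permutation test, whose smallest possible p with 2 libraries against 2 is 0.33. At replicate number 1 the LSC library was below the HSC library (0.759 against 0.840), and at replicate number 2 it was above (0.688 against 0.666). The HSC group held both the highest and the lowest value. Those were its shortest list, of 153914 peaks, and its longest, of 272787. The part of list length in this order was not tested.

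**Figure D1:**
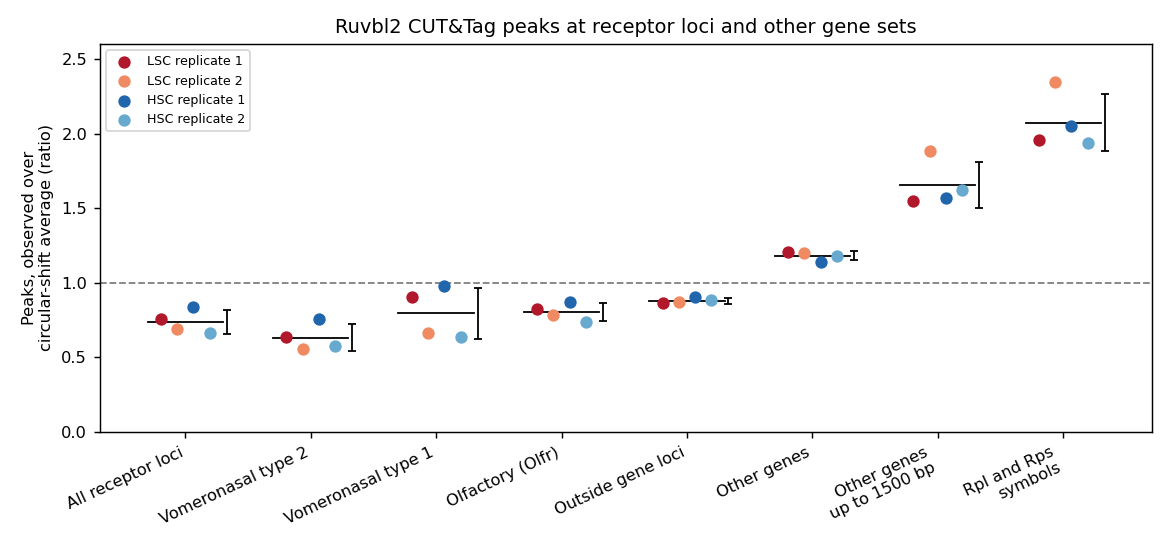
Relative rate of peaks (observed over the average of all circular shifts, no unit) for receptor loci, the receptor families and sets of other genes, with 1 point per library, a line at the mean and a bar for the SD (n = 4). All 4 receptor points lie below the line at 1, between 0.666 and 0.840, whereas other protein-coding genes lie between 1.14 and 1.20.

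Receptor loci also held fewer peaks than other genes. Peaks per Mb at receptor loci were 0.687 and 0.651 times those at other protein-coding gene loci in LSC replicates 1 and 2, and 0.812 and 0.631 times in HSC replicates 1 and 2. The mean log2 ratio was -0.53 ± 0.16 (SD, n = 4), lower in 4 of 4 libraries, with p = 0.13 in an exact two-sided sign-flip test over libraries. With 4 libraries 0.13 is the smallest p this test can give, so no ratio of this kind could pass 0.05. For the Olfr genes of at most 1500 bp against other genes of at most 1500 bp, the mean log2 ratio of peaks per Mb was -0.94 ± 0.23, again lower in all 4 libraries (exact sign-flip p = 0.13).

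The distance from the intergenic genome was smaller and depended on the scale. The relative rate was 0.738 ± 0.079 at receptor loci and 0.880 ± 0.019 outside all protein-coding gene loci (SD, n = 4 each). The ratio of both was 0.881 and 0.791 in LSC and 0.928 and 0.754 in HSC libraries (mean log2 -0.26, exact sign-flip p = 0.13). In raw peaks per Mb the ratio was 0.968 and 0.907 in LSC libraries and 1.03 and 0.850 in HSC libraries. On that scale HSC replicate 1 was above 1, and the exact sign-flip p was 0.25. Short loci catch more peak edges per Mb, which the shift average takes into account and peaks per Mb do not.

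By family, type 2 vomeronasal receptor genes had the lowest relative rate. It was 0.634 and 0.558 in LSC and 0.760 and 0.575 in HSC libraries for Vmn2r, with a mean of 0.632 ± 0.091. Olfactory receptor genes had 0.824 and 0.787 in LSC and 0.872 and 0.735 in HSC libraries, with a mean of 0.804 ± 0.058. The Vmn2r value was below the Olfr value in each library, by a mean log2 ratio of -0.36 ± 0.12 (exact sign-flip p = 0.13). Vmn2r genes are all long, and the 164 Olfr genes over 1500 bp were closer to them. Those had 0.684 and 0.746 in LSC and 0.768 and 0.733 in HSC libraries. The Vmn2r value was still lower in each library, by little in HSC replicate 1.

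Type 1 vomeronasal receptor genes varied most between libraries. Their relative rate was 0.903 and 0.666 in LSC and 0.980 and 0.635 in HSC libraries, with a mean of 0.796 ± 0.172. It was above the Olfr value in both libraries numbered 1 and below it in both numbered 2 (mean log2 ratio -0.04, exact sign-flip p = 0.75). These loci cover 0.842 Mb and held 72 and 55 peaks in LSC and 60 and 70 in HSC libraries. All vomeronasal loci together had 0.789, 0.684, 0.872 and 0.720 times the peaks per Mb of olfactory loci in LSC replicates 1 and 2 and HSC replicates 1 and 2 (mean log2 ratio -0.39 ± 0.15, exact sign-flip p = 0.13).

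Receptor loci close to other genes held more peaks than remote ones. By the listed positions, the 52 receptor loci that overlapped another protein-coding gene or lay within 10 kb of one had a mean relative rate of 0.933 ± 0.055, or 0.960 ± 0.056 without Olfr100 and Vmn2r122. It was 0.759 ± 0.072 for the 553 loci at 10 to 100 kb and 0.706 ± 0.096 for the 853 loci farther away (SD, n = 4 each). The near loci exceeded those over 100 kb away by 1.29 and 1.42 times in LSC and by 1.04 and 1.63 times in HSC libraries (exact sign-flip p = 0.13).

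Other families little used in blood gave values on either side of the receptor loci. Bitter taste receptor genes (Tas2r, 35 genes) had a mean relative rate of 0.519 ± 0.272, from 1 to 10 peaks in a library. Trace amine receptor genes (Taar, 15 genes) had 0.770 ± 0.385, and Mas-related receptor genes of sensory neurons (Mrgpr, 20 genes) had 0.818 ± 0.124. Defensin genes had 0.943 ± 0.171 and keratin-associated protein genes 0.964 ± 0.201. The 91 genes whose symbols begin with Rpl or Rps, mostly ribosomal protein genes but with S6 kinase and other genes among them, had 2.07 ± 0.190. The receptor mean lies within 1 SD of the Tas2r, Taar and Mrgpr means.

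Genes that serve receptor signalling or receptor choice did not share the low rate of the receptors. Of 28 such genes on a fixed list, 27 were on chromosomes 1 to 19, and their mean relative rate was 1.24 ± 0.112. A peak in all 4 libraries was found at 18 of the 27, where the share over all protein-coding genes was 63.3%. The strongest peak at Cbx5, which encodes the heterochromatin protein HP1 alpha and is used in most cells, had folds of 88.8 and 120 in LSC and 43.7 and 90.2 in HSC libraries. The fold is the authors' ratio of each peak over background in its own library. Gnal, the G protein subunit of olfactory neurons, had 41.2 and 22.7 in LSC and 17.8 and 11.6 in HSC libraries. Rtp1, a chaperone that brings olfactory receptors to the cell surface, had no peak in any library.

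The deficit at receptor loci was greatest among strong peaks. Each library's peaks were ranked by the authors' −log10 p. Among ranks 1 to 5000, receptor loci held 7 and 3 peaks in LSC replicates 1 and 2, and 13 and 3 in HSC replicates 1 and 2. The relative rates in that band were 0.338 and 0.116 in LSC and 0.628 and 0.116 in HSC libraries. Among ranks 100001 to 150000 they were 0.791 and 0.811 in LSC and 0.919 and 0.706 in HSC libraries. The weaker band was thus higher in all 4 libraries, and HSC replicate 1 was the highest in both.

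The same gradient was present outside gene loci and was reversed at other genes. Outside protein-coding gene loci the relative rate in ranks 1 to 5000 was 0.702 and 0.476 in LSC and 0.777 and 0.499 in HSC libraries, above the receptor value in each. At other protein-coding genes it was 1.44 and 1.86 in LSC and 1.33 and 1.85 in HSC libraries. In ranks 100001 to 150000 the other genes had 1.19 and 1.13 in LSC and 1.12 and 1.15 in HSC libraries, closer to 1.

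**Figure D2:**
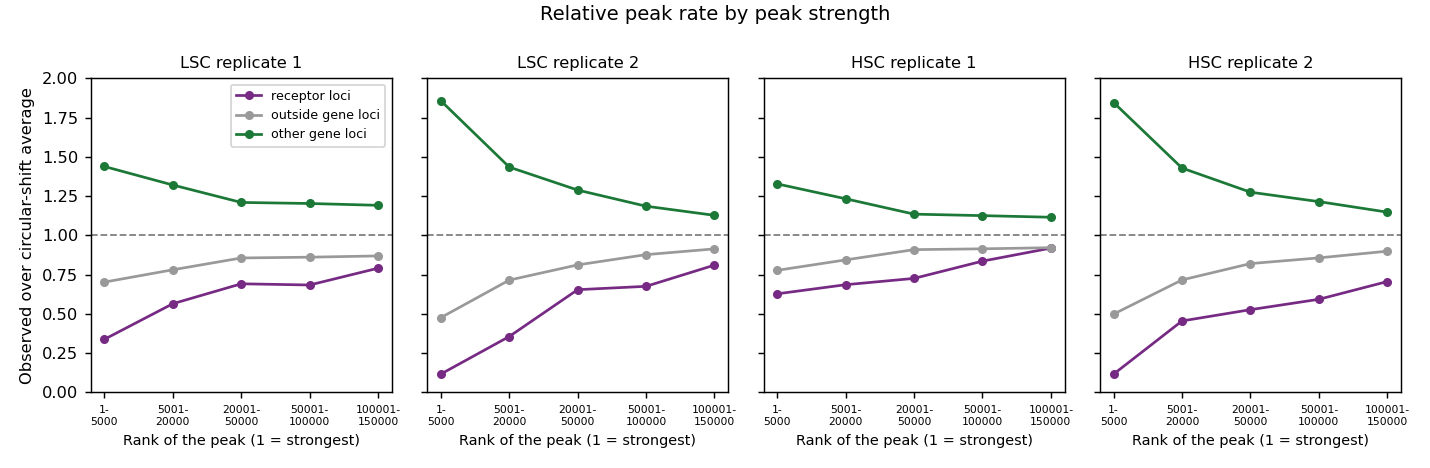
Relative rate (ratio, no unit) by band of peak rank within a library, strongest peaks at the left, in 1 panel per library, with 1 line each for receptor loci, the genome outside gene loci and other protein-coding genes. The receptor lines start between 0.116 and 0.628 and end between 0.706 and 0.919, while those of other genes start between 1.33 and 1.86.

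Receptor peaks were slightly weaker than a library's peaks at large. The median fold was 10.1 and 8.47 at receptor loci in LSC replicates 1 and 2, against 11.3 and 9.11 over all their peaks. In HSC replicates 1 and 2 it was 12.3 and 5.61 at receptor loci, against 13.4 and 5.99 over all peaks. The mean log2 ratio was -0.12 ± 0.04, lower in 4 of 4 libraries (exact sign-flip p = 0.13). Folds set against different backgrounds are not comparable between libraries, so each ratio was taken within a library. Of the 20000 strongest peaks of each library, 40 and 26 lay at receptor loci in LSC and 54 and 33 in HSC libraries.

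Peak widths showed no such shift. The median width at receptor loci was 328 and 435 bp in LSC libraries, against 333 and 453 bp over all peaks. In HSC libraries it was 417 and 458 bp at receptor loci, against 394 and 462 bp over all peaks. The receptor value was below that of all peaks in 3 libraries and above it in HSC replicate 1.

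No gathering of peaks was seen just upstream of the annotated receptor starts. Many of these are coding starts, so the bin before them need not be a promoter. The comparison with other genes is thus not like with like. In the 500 bp before the annotated start, summits per Mb were 0.51 and 0.58 times the library's genome rate in LSC and 0.74 and 0.80 times in HSC libraries for the 1260 receptor genes. At other genes the same bin held 3.05 and 4.92 times the genome rate in LSC and 3.13 and 3.82 times in HSC libraries. In the first 500 bp inside receptor genes the values were 1.25 and 1.17 in LSC and 1.40 and 1.02 in HSC libraries.

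**Figure D3:**
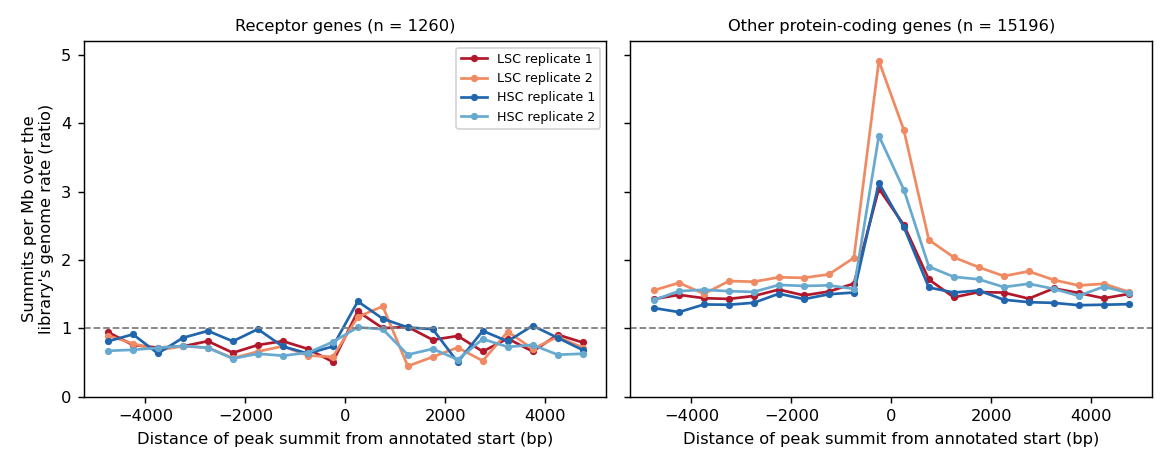
Peak summits per Mb over the library's genome rate (ratio, no unit) in 500 bp bins by distance from the annotated start in bp, receptor genes at the left and other protein-coding genes at the right, with 1 line per library. The receptor lines stay at or below 1.40, and each is higher in the bin after the start than in the bin before it, whereas the other genes peak at 3.05 to 4.92 just before the start.

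Summits lay more often inside short olfactory receptor genes than in their flanks. For the 940 Olfr genes of at most 1500 bp, summits per Mb in the body were 1.38 and 1.51 times the library's genome rate in LSC and 1.51 and 1.14 times in HSC libraries. In the flanks they were 0.723 and 0.594 times that rate in LSC and 0.723 and 0.658 times in HSC libraries. The bodies of these short genes, unlike their flanks, were thus above the genome rate in all 4 libraries. The body held 1.90 and 2.55 times the summits per Mb of the flanks in LSC and 2.09 and 1.74 times in HSC libraries. The mean log2 ratio was 1.03 ± 0.24, higher in 4 of 4 libraries (exact sign-flip p = 0.13). Other genes of at most 1500 bp had ratios of 1.32 and 1.49 in LSC and 1.26 and 1.46 in HSC libraries. Vmn1r genes of that length had no common direction, with 0.585 and 1.45 in LSC and 1.34 and 0.930 in HSC libraries (exact sign-flip p = 1). Base composition moved with position. For Olfr windows of any gene length the median GC content was 33.8% upstream of the start and 44% in the 50 bp inside the gene. It was 34.6% and 42% for Vmn1r windows, and went the other way, from 38.6% to 34%, for Vmn2r windows. The part of base composition in the result was not tested.

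Few receptor start windows had a peak, and many of them lie at a coding start and not at the start of the transcript. Peaks overlapped 3.49% and 4.29% of the 1260 receptor windows in LSC and 4.29% and 7.38% in HSC libraries, against 18.5% and 36.6% of other genes' windows in LSC and 14.98% and 38.8% in HSC libraries. Among windows of 30 to 40% GC, the shares were 3.29% and 4.71% in LSC and 4.00% and 7.06% in HSC libraries for 850 receptor genes. For 643 other genes of that GC content they were 6.84% and 7.93% in LSC and 4.98% and 11.04% in HSC libraries. The receptor share stayed lower in all 4 libraries, and the gap was narrower. Composition was not equal within this class. The median GC content was 35.3% for receptor and 37.7% for other windows, and 33.4% and 17.0% of them held no CpG. Of the 1260 receptor windows, 1034 had no peak in any library, 208 had one in 1 library, 17 in 2, 1 in 3 and 0 in all 4.

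Receptor windows with and without a peak were alike in composition. The 226 windows with a peak had a median GC content of 37%, against 35.7% for the 1034 without. The letters TAATTA, a core that homeodomain factors bind, were found on either strand in 15.9% of receptor windows with a peak and 16.9% of those without, and in 4.61% of all 16456 windows. The letters CCCNNGGG, contained in the binding sequence of the EBF factors of olfactory neurons, were in 3.54% of receptor windows with a peak and 4.26% of those without, and in 15.7% of all windows. Each string reads the same on both strands, and a match of one cannot overlap a match of the other. With many receptor windows at a coding start, their shares beside those of all windows do not compare promoters with promoters. Related copies were frequent, and 24.9% of receptor windows shared 50 identical bases with another window. The share was 62.9% for Vmn2r, 54.9% for Vmn1r and 13.6% for Olfr windows, and 13.7% for windows of other protein-coding genes. The 314 receptor windows with such a stretch had a peak in 3.18% and 4.46% of cases in LSC and 4.14% and 6.69% in HSC libraries. For the 946 without one the shares were 3.59% and 4.23% in LSC and 4.33% and 7.61% in HSC libraries. The windows with and without such a stretch differ in their mix of families, and they were not compared within families. The part of shared sequence in the family rates was not tested.

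Across the genome most receptor clusters were below the shift average in each library. Receptor genes joined over gaps of up to 500 kb formed 76 clusters, of which 18 held 1 gene and 32 held at least 10 genes, 1312 genes in all. Of these 32, 16 were below the shift average in all 4 libraries and 1 was above it in all 4. The number below it was 24 and 28 of 32 in LSC and 23 and 30 in HSC libraries. Mean relative rates ran from 0.422 to 1.22 with a median of 0.753.

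The 5 clusters with most genes had mean relative rates from 0.677 to 0.904, on both sides of the mean of 0.738 over all receptor loci. The cluster from Olfr987 to Olfr1274 on chromosome 2 (chr2:85330967-90401674, 222 genes) had relative rates of 0.741 and 0.753 in LSC and 0.718 and 0.660 in HSC libraries. Its range was narrow, and all 4 values were below 1. The cluster from Olfr543 to Olfr692 on chromosome 7 (chr7:102476773-105369317, 126 genes), which surrounds the beta-globin genes, had 1.00 and 0.856 in LSC and 0.782 and 0.877 in HSC libraries. The chromosome 9 cluster from Olfr160 to Olfr986 (95 genes) averaged 0.711 ± 0.121, and the chromosome 19 cluster from Olfr1417 to Olfr1505 (63 genes) averaged 0.677 ± 0.174. The type 1 vomeronasal cluster from Vmn1r91 to Vmn1r183 on chromosome 7 (86 genes) averaged 0.904 ± 0.335. HSC replicate 1, with 1.39, set its spread, the other 3 libraries lying between 0.646 and 0.840.

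The extremes both lay on chromosome 7. The cluster from Olfr291 to Vmn2r79 (chr7:84853571-87037968, 32 genes) had 0.371 and 0.437 in LSC and 0.397 and 0.482 in HSC libraries. The cluster from Olfr522 to Olfr541 (chr7:140162010-140705191, 19 genes) had 1.21 and 1.13 in LSC and 1.01 and 1.53 in HSC libraries. The cluster from Olfr522 to Olfr541 rested on 9 and 9 peaks in LSC and 6 and 16 in HSC libraries. Both were chosen as extremes of 32, so the values describe them and test nothing. The index of dispersion of peaks over the 32 clusters around the shift averages scaled to each library was 1.62 and 1.30 in LSC and 1.24 and 1.56 in HSC libraries, where independent counting would give about 1.

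**Figure D4:**
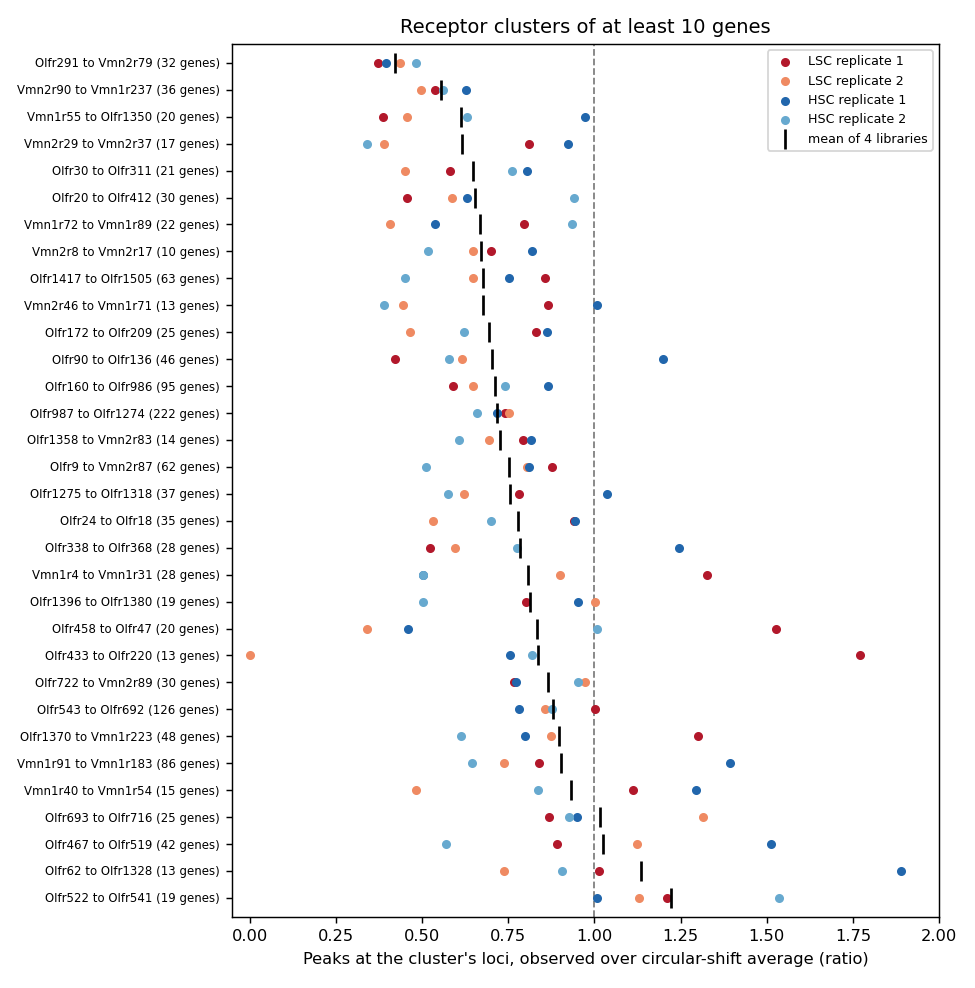
Relative rate (no unit) of the 32 receptor clusters of at least 10 genes, ordered by their mean, with 1 point per library, a tick at the mean and a line at 1. Mean values run from 0.422 to 1.22, and the points of most clusters lie below the line.

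Peaks in several libraries were found mainly at long receptor genes. Of the 1458 loci, 440 had no peak in any library, 559 had one in 1 library, 274 in 2, 122 in 3 and 63 in all 4. The 185 loci in 3 or 4 libraries were 12.7% of receptor loci, against 79.4% of all protein-coding genes. For all 4 libraries the shares were 4.32% of receptor loci and 63.3% of all genes. Among genes of at most 1500 bp, 5% of 940 Olfr loci had a peak in 3 or 4 libraries and 0.426% in all 4, against 24.8% and 11% of 785 other loci. By family, 80 of 123 Vmn2r loci (65.0%), 15 of 231 Vmn1r loci (6.49%) and 90 of 1104 Olfr loci (8.15%) had a peak in 3 or 4 libraries. Among loci in all 4, the median gene length was 33286 bp for Vmn2r and 8054 bp for Olfr, against 24544 bp and 950 bp over all members of the family.

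The count of 185 lay between the values that simple models give. The shift average of each library at each locus, multiplied over libraries, gave 231 loci in 3 or 4 libraries and 85.9 in all 4. The share of receptor loci with a peak in each library, taken as independent between libraries, gave 116 and 10.9. With that share taken within classes of gene length, the counts were 150 and 23.0. Observed counts were 185 and 63, so loci with a peak in several libraries were fewer than shifted peaks would give and more than independence at the observed shares would give. For Vmn2r loci in 3 or 4 libraries, the observed 80 was close to the 82.0 from independence within length classes.

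At loci with a peak in all 4 libraries, peaks of 2 libraries often overlapped, but a base covered in 3 or 4 was uncommon. Of the 63 loci with a peak in all 4 libraries, 2 had a base covered in all 4, 8 had at most 3 libraries at any base, 40 had at most 2, and at 13 no peaks of different libraries overlapped. Counted as separate stretches covered by peaks, 18 of 2094 that touched receptor loci (0.860%) had a base covered in at least 3 libraries. That base could lie in a part of the stretch beyond the edge of the locus. The share was 1.56% outside gene loci, 2.86% at other genes and 12.1% at other genes of at most 1500 bp. By family it was 3 of 680 stretches for Vmn2r, 1 of 234 for Vmn1r and 14 of 1180 for Olfr.

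**Figure D5:**
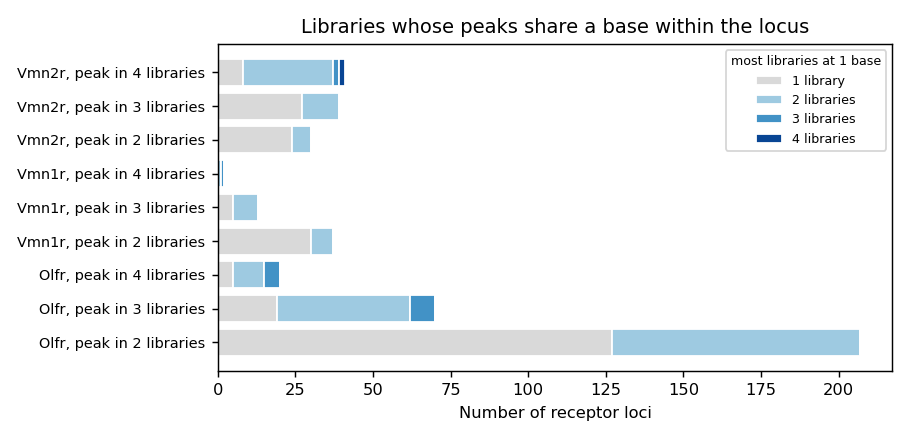
Number of receptor loci by family and by the number of libraries with a peak at the locus, each bar divided by the largest number of libraries whose peaks cover a common base. Among the 63 loci with a peak in all 4 libraries, the darkest part, a base covered in all 4, holds 2 loci, both of them Vmn2r.

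A single stretch at receptor loci was covered in all 4 libraries. It spans 1227 common bases at chr3:64171519-64172745 (mm10), inside the annotated body of Vmn2r1. Its lower coordinate is also within 1 kb of the upstream end of the Vmn2r2 gene model (minus strand, 64170917), before the outermost annotated Vmn2r2 start. Most of the stretch lies beyond that 1 kb. The stretch is counted at both loci. Vmn2r1 and Vmn2r2 encode receptors of the subfamily that basal vomeronasal neurons express alongside another type 2 receptor. The peak had a fold of 131 in LSC replicate 1 and 47.9 in LSC replicate 2, and of 41.3 and 41.4 in HSC replicates 1 and 2. Its rank was 259 and 1092 in LSC and 4887 and 539 in HSC libraries, so it was among the 5000 strongest peaks of every library. Its width was 1513 and 2103 bp in LSC and 1242 and 1612 bp in HSC libraries, several times the median peak. The protein-coding gene nearest to the Vmn2r1 model that is no receptor gene was Gmps, which encodes GMP synthetase, 56618 bp from its lower end. The stretch itself lies farther from Gmps, past Vmn2r2, whose model is 94176 bp from Gmps. The RefSeq start windows used, the first listed per gene, had no peak in any library. That of Vmn2r1 (chr3:64081392-64081691) lies inside its gene model. That of Vmn2r2 (chr3:64137431-64137730) also lies inside its model, away from the upstream end beside the stretch.

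The other 17 stretches, with a base covered in 3 libraries, held no peak among the 5000 strongest of a library. Their highest fold was 55.1, at Vmn2r93 in LSC replicate 1, where HSC replicates 1 and 2 had 15.3 and 5.99 and LSC replicate 2 had no peak there. At Vmn2r111 the folds were 6.22 and 20.3 in LSC replicates 1 and 2 and 3.93 in HSC replicate 2. The longest common stretch, 338 bp, lay in Olfr67, next to the beta-globin genes, with folds of 10.4 in LSC replicate 1 and 11.2 and 10.3 in HSC replicates 1 and 2. At Olfr976, 304 bp were shared, with folds of 9.11 in LSC replicate 2 and 12.03 and 5.80 in HSC replicates 1 and 2. These 17 stretches held a peak of LSC replicates 1 and 2 in 12 and 8 cases and of HSC replicates 1 and 2 in 14 and 17 cases. The common bases of 13 of all 18 stretches lay in a gene body. Those of 5 lay outside gene bodies, in a flank or beyond it.

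After Vmn2r1 and Vmn2r2, the loci with a peak in all 4 libraries that ranked best by their worst peak had strongest peaks of lower fold, mostly at different positions. Olfr687 (chr7:105227717-105276461) had folds of 21.0 and 21.6 in LSC and 23.5 and 9.92 in HSC libraries, at places far apart in the locus. Vmn2r60 had 22.3 and 11.9 in LSC and 19.7 and 9.36 in HSC libraries. Vmn2r115 had 22.5 and 12.5 in LSC and 17.5 and 9.17 in HSC libraries, and its strongest peaks in LSC replicate 1 and HSC replicate 1 overlapped. In none of these genes did the strongest peaks of all 4 libraries share a base.

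Some of these loci lie beside other genes. Olfr1393 lies 846 bp from Mgat1, which encodes an enzyme of N-glycan synthesis, and had folds of 32.2 and 12.3 in LSC and 15.6 and 8.98 in HSC libraries. Vmn2r29, whose start window is printed above, lies 2998 bp from the zinc finger gene Zfp772. Its strongest peak had a fold of 37.5 in LSC replicate 2 (chr7:7276621-7278348), reached into the start window and was 1728 bp wide. In LSC replicate 1 the strongest peak had a fold of 15.6, and in HSC replicates 1 and 2 folds of 20.5 and 12.9, all inside the gene and away from its start. Vmn2r26, whose product detects MHC-binding peptides, had folds of 13.2 and 25.8 in LSC and 11.5 and 11.6 in HSC libraries.

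The remaining named loci in all 4 libraries were Vmn2r57, Vmn2r82, Olfr1231, Vmn2r124, Olfr605, Vmn2r19 and Vmn2r24. The folds of their strongest peaks ran from 9.11, at Olfr605 in LSC replicate 2, to 29.3, at Vmn2r57 in LSC replicate 1. Olfr1231 and Olfr605 are short genes, of 942 and 1011 bp, so peaks of all libraries fell within about 3 kb. At each of them 3 libraries shared 9 bases, LSC replicate 1 and both HSC replicates, while LSC replicate 2 had its peak elsewhere in the locus. Olfr1231 lies 1126166 bp from the nearest other protein-coding gene, Ptprj.

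Of the loci in exactly 3 libraries, the 10 ranking best were 5 Vmn2r and 5 Olfr genes. Vmn2r49 had folds of 24.0 and 16.1 in LSC and 23.0 in HSC replicate 1, and Vmn2r89 had 19.2 and 16.5 in LSC and 29.2 in HSC replicate 1. Vmn2r92 had 20.7 and 11.4 in LSC and 29.8 in HSC replicate 1. These 3 loci had no peak in HSC replicate 2, the library with the longest list. Vmn2r58 and Vmn2r114 had none in LSC replicate 1. Of the Olfr genes, Olfr692, Olfr635 and Olfr1416 had none in HSC replicate 1, Olfr1428 none in LSC replicate 2 and Olfr18 none in LSC replicate 1. Olfr635 has the embryonic globin gene Hbb-y as its nearest other gene, at 125969 bp.

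The strongest peak of the other families was seen in 1 library alone. Olfr229 (chr9:39909805-39910728) had a peak with a fold of 110 and rank 487 in LSC replicate 1 and no peak in the other 3 libraries. Vmn1r171 (chr7:23631988-23633568) had a peak with a fold of 56.6 and rank 1212 in HSC replicate 1 and none in the other 3.

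Loci with peaks in 1 cell type alone were few. Both LSC libraries and neither HSC library had a peak at 58 loci (3.98%), and both HSC libraries and neither LSC library at 43 (2.95%). The shares were 1.34% and 1.31% over all protein-coding genes, most of which had peaks in every library. They were 2.29% and 2.93% over other genes of at most 1500 bp. The LSC-only loci comprised 4 Vmn2r, 11 Vmn1r and 43 Olfr genes, and the HSC-only loci 5 Vmn2r, 8 Vmn1r and 30 Olfr genes. No receptor family was counted in 1 direction alone, and no test was made of these counts.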

How the data were processed

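Ruvbl2 CUT&Tag peaks were analysed in 2 LSC and 2 HSC libraries, grouped by sample title. Per the submitters' processing notes, FastQC 0.11.5, Bowtie2 2.2.9, MACS2 and ChIPseeker were used with the build mm10. For MACS2 and ChIPseeker no version is named; the calling threshold and what was done with duplicate or multiply mapped reads are likewise not given in these sources. The deposited peak lists are separate for each library, with no pooling of replicates. The deposited score per peak was not used, the deposited fold is a ratio of signal to background in the library, and the deposited −log10 p ranked peaks. The deposited −log10 q value served as a filter in an alternative.

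Peaks on chromosomes 1 to 19 were kept and identical intervals collapsed. A peak counted at a locus when it overlapped it by at least 1 bp. The shift average was computed exactly by interval arithmetic over all circular shifts, with no random draws, over 2460.74 Mb. Gene positions and start windows (the first listed per gene) came from RefSeq tables of GRCm38.p6. Scripts in Python 3.11.15 with numpy 2.4.6, pandas 2.3.3 and matplotlib 3.10.9 were tested on simulated data. Ratios were tested over libraries by exact sign flips and groups by exact permutation.

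Named loci were up to 15 with peaks in all 4 libraries and up to 10 with peaks in exactly 3, both by the worst rank, the strongest per family, the 5 clusters with most genes and the extreme clusters. Loci described for shared bases, the printed windows and the named genes of the signalling list were chosen after their values were seen. The receptor loci and all lists were chosen with earlier results of these data known. Alternatives were stronger peaks only, summit or 50% overlap, other flanks, gaps and cluster sizes, loci away from other genes, other scales and leaving out each library. Peaks on X, Y and unplaced sequences were left out. Depth is unknown, so no counting interval is given.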

Additional observations from a re-analysis of the deposited data

Results flagged for a closer look

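Genes listed as receptor pseudogenes are not among the protein-coding receptor loci and were not looked at on their own in the comparisons. They too held peaks, with no control library to set them against. Some genes with pseudogene symbols, such as Olfr367-ps and Olfr1532-ps1, are listed as protein-coding and were counted among the receptor loci. Where they lie outside protein-coding gene loci, their peaks are part of that larger set. The 584 olfactory and vomeronasal receptor pseudogenes on chromosomes 1 to 19, with 1 kb on either side, cover 3.55 Mb. Peaks at them numbered 234 and 269 in LSC replicates 1 and 2, and 190 and 307 in HSC replicates 1 and 2. Of these, 231 and 264 in LSC and 184 and 305 in HSC libraries overlapped no protein-coding receptor locus. The relative rates were 0.730 and 0.828 in LSC and 0.779 and 0.701 in HSC libraries, each below the shift average, as at the protein-coding receptor loci.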

How the results depend on the processing

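The relative rate at receptor loci stayed below 1 under every alternative run, with a mean log2 value of -0.44 over all peaks, -1.21 with the 20000 strongest peaks, -1.61 with the 10000 strongest and -0.51 to -0.40 without each library in turn. The means for the rate against other genes, the vomeronasal against the olfactory rate and the fold also stayed negative in all alternatives run. They ran from -1.90 to -0.39, -0.83 to -0.16 and -0.13 to -0.06 on the log2 scale. With the 10000 strongest peaks the libraries no longer all had that direction for the vomeronasal rate and the fold (exact sign-flip p = 0.375 each). In ranks 1 to 5000 the vomeronasal relative rate was above the olfactory one in LSC replicate 2 (0.164 against 0.0738) and HSC replicate 2 (0.168 against 0.0721). These rested on 2 peaks against 1 in each library, and the rate was lower in both libraries numbered 1. The LSC minus HSC difference of -0.05 had no stable sign: it was -0.37 with the 20000 and -0.14 with the 10000 strongest peaks, 0.016 with a −log10 q of at least 10, and ran from -0.22 to 0.12 without each library, turning positive without LSC replicate 2 (0.022) or HSC replicate 1 (0.12); the cause was not tested. The count of 185 loci in 3 or 4 libraries fell to 2 with the 20000 and 2 with the 10000 strongest peaks, was 635 with a flank of 5000 bp, which lengthens every locus, and was 83 to 99 without a library, where all 3 remaining ones must have a peak. Clusters below the average in all 4 libraries numbered 13 to 20 in the alternatives, against 16 of 32, with totals that changed with the setting. There were 15 of 34 with a gap of 200 kb and 13 of 28 with a gap of 1 Mb. There were 20 of 45 among clusters of at least 5 genes, 13 of 23 among those of at least 20, and 16 of 32 with the 20000 strongest peaks. Leaving out the 4 receptor and 101 other genes listed before the first peak of their chromosome, an alternative chosen after seeing the data, gave a mean log2 relative rate of -0.44, -0.53 against other genes, -0.38 for vomeronasal against olfactory loci, 185 loci and 16 clusters. The labels share replicate numbers without saying that they pair samples. With a replicate block, the LSC minus HSC difference was -0.049 (exact sign-flip p = 1, smallest possible 0.5), and with 2 numbers the pairing could not be checked further. Read depth, the antibody's own background and regions prone to artefact signal were not measured by any file used here, and 4 libraries allow no exact sign-flip p below 0.13.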
